A study of Homo sapiens with 17 samples.

Results

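Binding of the thyroid hormone receptor TRβ and of 3 chromatin remodeling subunits was examined around 35 genes of the receptor tyrosine kinase, RAS-MAPK and PI3K pathways in Nthy-ORI cells, which are human thyroid epithelial cells from normal tissue that were immortalised in culture. Each gene was given a window, its RefSeq span extended by 25 kb on both sides, and every listed region that overlapped the window by at least 1 bp was counted for it. The 35 genes were compared with the 20002 other protein-coding genes among the 20037 on chromosomes 1 to 22, X and Y. Their median span was 42.0 kb, with a range of 3.33 to 1163 kb, against 24.1 kb for other protein-coding genes. The windows of the 35 genes did not overlap one another, and a window held a median of 1 further protein-coding gene, so that a region counted here can lie in a neighbouring gene.

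The assay was CUT&RUN, in which an antibody directs a nuclease to a protein in nuclei and the DNA released around it is sequenced. Cells of all groups were first kept without hormone for 24 h, in medium with charcoal-stripped serum. They then received either 10 nM T3, which is the active form of thyroid hormone, or NaOH as vehicle. Each library is labelled 6 h, although the protocol text that comes with it also names 24 h. The antibodies were against TRβ, BRG1 (the ATPase of SWI/SNF remodelers), ARID1A (a subunit of the BAF form) and PBRM1 (a subunit of the PBAF form), with nuclei of 500000 cells per reaction. Each of the 8 groups had 2 libraries and 1 deposited list of regions found in both of them, and 1 IgG library was not used here. All libraries come from a single cell line, nothing in the labels says that the replicates were separate cultures, and the files hold no expression values with which to check thyroid identity. Read depth is unknown. With 1 list per group the differences below have no replicate check and no test, and intervals on shares of regions are exact (Clopper-Pearson) 95% intervals that cover counting error only.

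Receptor tyrosine kinases bind growth factors outside the cell and pass the signal to RAS, which activates the kinases RAF, MEK and ERK in turn, and to PI3K, which activates AKT and MTOR. Dual-specificity phosphatases (DUSP) and Sprouty proteins (SPRY) are induced by the pathway and dampen it. In the thyroid these genes are best known as cancer drivers: mutated BRAF and RAS genes and rearranged RET occur in thyroid carcinoma. TRβ is a nuclear receptor that binds DNA at copies of a half-site with the letters AGGTCA, and the SWI/SNF remodelers move or evict nucleosomes.

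With T3, TRβ regions were listed at the annotated transcription start of 8 of the pathway genes. The sequences before the start are given for the 5 of these genes whose region had the highest signal value (the authors' measure of the strength of a region, summed over its 2 libraries), because these are the places where the listed TRβ region and the gene start coincide. Each line holds the 250 bases before the start, 5′ to 3′ on the strand of the gene, from the RefSeq promoter table of GRCh38.p14. Capitals mark every GC box, with the letters GGGCGG or its reverse complement CCGCCC, and in MAPK3 also the half-site AGGTCA, which reads TGACCT on this strand. The stretches are chr15:98648289-98648538 on the + strand for IGF1R, chr16:30123221-30123470 on the - strand for MAPK3, chr19:4124123-4124372 on the - strand for MAP2K2, chr5:68215506-68215755 on the + strand for PIK3R1 and chr9:132944617-132944866 on the - strand for TSC1.
IGF1R: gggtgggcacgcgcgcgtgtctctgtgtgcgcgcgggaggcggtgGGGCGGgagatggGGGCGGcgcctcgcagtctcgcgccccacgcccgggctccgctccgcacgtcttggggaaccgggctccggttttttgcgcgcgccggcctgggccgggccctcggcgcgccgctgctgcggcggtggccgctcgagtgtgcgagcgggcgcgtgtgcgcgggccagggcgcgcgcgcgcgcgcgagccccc
MAPK3: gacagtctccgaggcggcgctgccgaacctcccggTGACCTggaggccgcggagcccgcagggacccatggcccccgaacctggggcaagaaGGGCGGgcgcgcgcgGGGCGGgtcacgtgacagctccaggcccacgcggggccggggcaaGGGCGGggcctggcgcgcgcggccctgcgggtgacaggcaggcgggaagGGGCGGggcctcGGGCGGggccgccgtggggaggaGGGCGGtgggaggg
MAP2K2: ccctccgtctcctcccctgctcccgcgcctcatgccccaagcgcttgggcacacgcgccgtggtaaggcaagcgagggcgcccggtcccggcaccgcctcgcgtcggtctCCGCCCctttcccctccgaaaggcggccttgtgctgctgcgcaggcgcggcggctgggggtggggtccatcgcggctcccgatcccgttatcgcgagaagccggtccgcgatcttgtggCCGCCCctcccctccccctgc
PIK3R1: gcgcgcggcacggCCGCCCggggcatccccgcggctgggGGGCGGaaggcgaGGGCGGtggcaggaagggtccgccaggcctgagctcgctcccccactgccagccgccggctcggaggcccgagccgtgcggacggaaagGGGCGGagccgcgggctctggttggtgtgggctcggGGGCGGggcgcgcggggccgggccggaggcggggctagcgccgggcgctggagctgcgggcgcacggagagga
TSC1: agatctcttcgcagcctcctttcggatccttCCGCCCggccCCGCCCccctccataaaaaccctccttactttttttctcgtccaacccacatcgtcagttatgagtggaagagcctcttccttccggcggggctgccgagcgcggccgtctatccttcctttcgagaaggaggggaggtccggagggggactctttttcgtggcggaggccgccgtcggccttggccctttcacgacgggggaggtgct

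The GC content of these stretches was 81.2% for IGF1R, 80.4% for MAPK3, 74.0% for MAP2K2, 81.6% for PIK3R1 and 62.0% for TSC1. The median over the 8 starts inside a TRβ T3 region was 76.8%, against 68.4% over the 2753 listed starts of protein-coding genes inside one and 62.0% over all 22181 listed starts. GC boxes on either strand were found before at least 1 start of 27 of the 31 pathway genes in the promoter table, against 53.7% of all listed starts and 81.4% of those in a TRβ T3 region. These shares, and those below, count starts, of which a gene can have several. The 4 genes not among the 31 were ERBB3, FGFR1, DUSP4 and DUSP5.

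The half-site AGGTCA, searched on both strands, was found before starts of FGFR2 and MAPK3, against 10.5% of all listed starts and 6.57% of those in a TRβ T3 region. Of these 2 genes MAPK3 had a TRβ T3 region at its start and FGFR2 had none in its window. A direct repeat of the half-site with a spacer of 4 bases (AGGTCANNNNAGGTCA, which contains the half-site) was found before none of the 31 genes and before 0.00451% of all listed starts. The AP-1 site TGANTCA was found before starts of EGFR, ERBB2 and PDGFRA, against 5.35% of all listed starts, and the RUNX core TGTGGT before a start of FGFR2, against 9.36%. These are matches of letters in a window of 250 bases, and a window without a match says only that the letters are not in it.

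TRβ was listed near more of the pathway genes with T3 than with vehicle. With T3, 23 of the 35 genes (65.7%) had at least 1 TRβ region in their window, against 39.3% of other protein-coding genes. With vehicle, 5 genes (14.3%) had one, against 11.1% of other protein-coding genes. The T3 list is also the longer, with 7208 regions, against 1412 in the vehicle list. When the T3 list was held to its 1412 regions of highest signal value, 6 of the pathway genes had a T3 region and 5 a vehicle region, against 2809 and 2221 of the 20002 other protein-coding genes. Counted over the gene spans alone, 15 pathway genes had a TRβ T3 region, against 22.5% of other protein-coding genes. Other genes weighted to the span classes of the 35 genes gave 39.0% for the T3 list and 10.9% for the vehicle list, close to the unweighted shares. Per 100 kb of window, the pathway genes had 0.734 TRβ T3 regions, against 0.616 for other protein-coding genes, and 0.113 TRβ vehicle regions, against 0.117.

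The remodelers were listed near nearly all of the 35 genes, except for PBRM1 with vehicle. BRG1 regions were present near 35 genes with T3 and 35 with vehicle, against 79.7% and 82.7% of other protein-coding genes. ARID1A regions were present near 32 genes with T3 and 33 with vehicle, against 76.0% and 79.5% of other protein-coding genes. PBRM1 regions were present near 33 genes with T3 and 22 with vehicle, against 78.0% and 44.0% of other protein-coding genes. The counts for BRG1 and ARID1A lay close together in the 2 conditions, and the PBRM1 vehicle list, with 9115 regions against 38140 with T3, covered fewer genes in both sets. The 3 genes without an ARID1A T3 region were ERBB4, NRAS and ARAF, and the 2 without a PBRM1 T3 region were NRAS and ARAF.

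**Figure D1:**
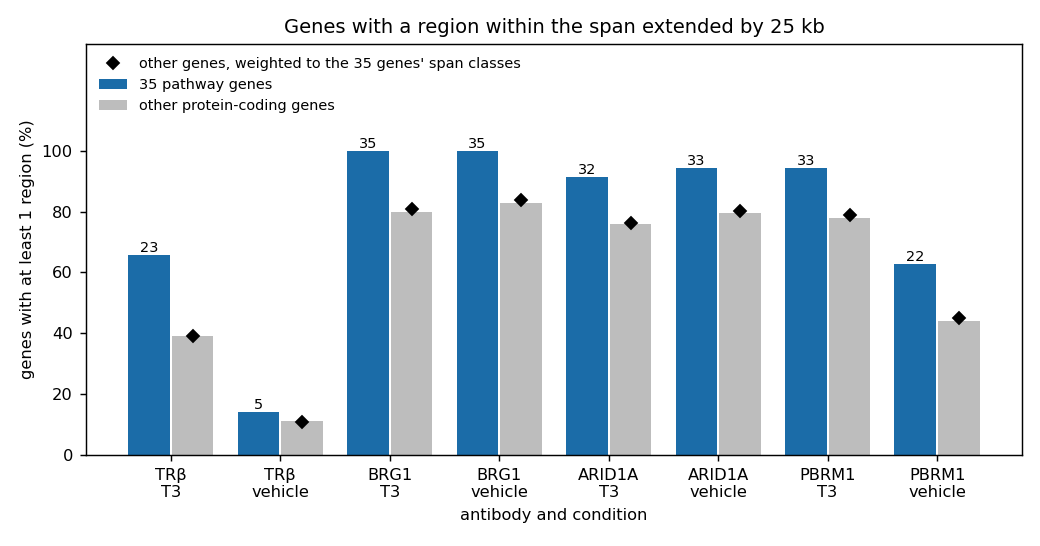
Share of genes with at least 1 region within the gene span extended by 25 kb, in percent, for each antibody and condition. Blue bars are the 35 pathway genes with their number above, grey bars other protein-coding genes, and diamonds the same other genes weighted to the span classes of the 35. The blue bar is the taller in all 8 lists, and for TRβ it reaches 65.7% with T3 and 14.3% with vehicle.

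**Figure D2:**
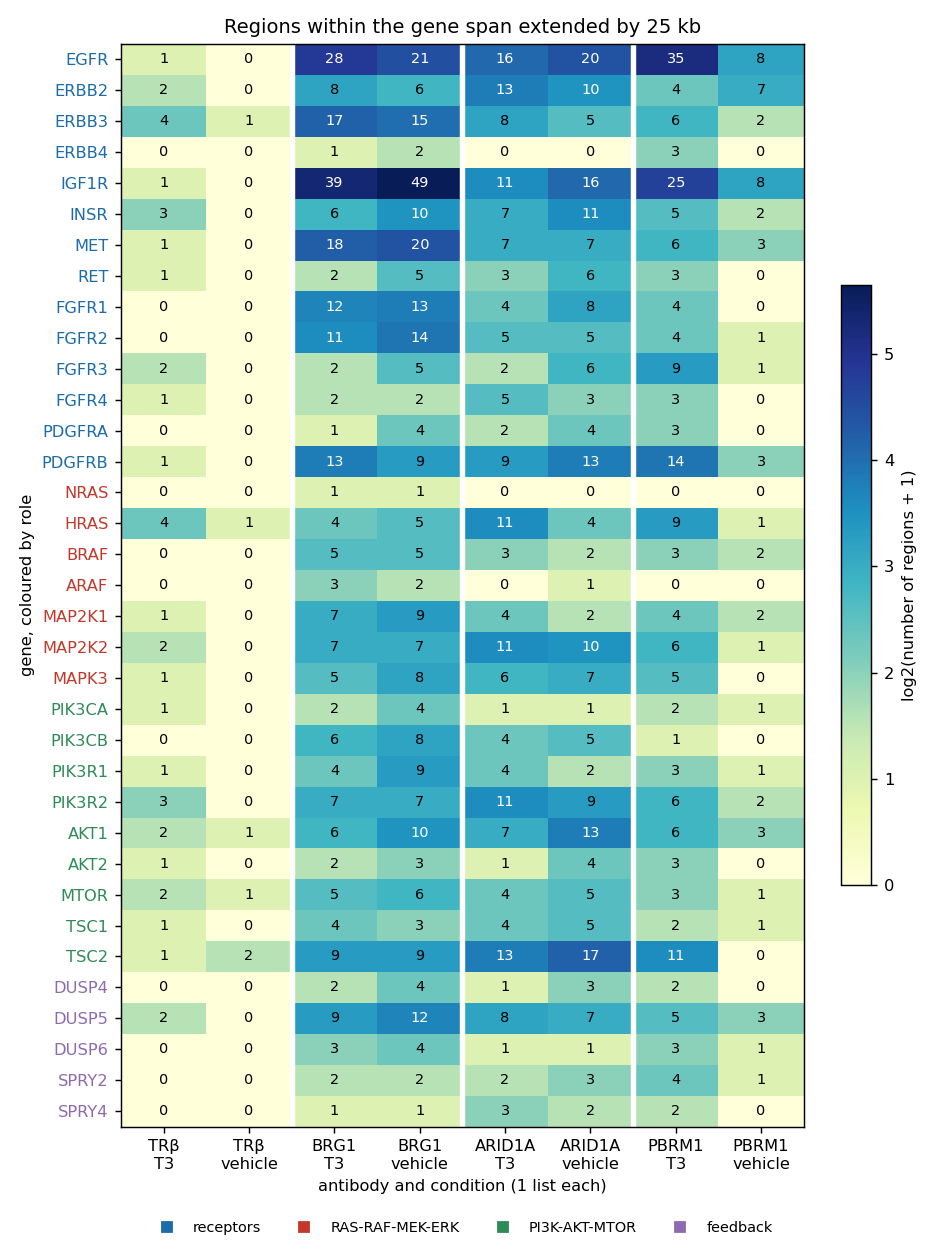
Number of regions in the window of each of the 35 genes in each of the 8 lists, with colour showing log2(number + 1) and gene names coloured by role. TRβ counts run up to 4 with T3 and 2 with vehicle, while BRG1 counts reach 39 with T3 and 49 with vehicle at IGF1R.

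Among the 14 receptor genes, 10 had a TRβ T3 region, 17 regions in all, against 39.3% of other protein-coding genes. With vehicle 1 had a TRβ region, against 11.1%. IGF1R, the receptor for insulin-like growth factors, had a single TRβ region, at its start (chr15:98647103-98649150). The authors' signal value of this region was 6.09 in the first library column and 11.0 in the second, and 17.1 as their sum, which ranked 530 of the 7208 regions. The region was listed with T3 only, and it overlapped a region of all 6 remodeler lists.

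INSR, the insulin receptor, had 3 TRβ regions, all T3-only, meaning that no region of the TRβ vehicle list overlapped them. The strongest, chr19:7098841-7099858, had values of 6.06 and 6.63 (sum 12.7) and lay 12406 bp outside the gene, with ZNF557 the nearest protein-coding gene. The other 2 lay within INSR, with sums of 10.6 and 9.71.

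MET, the receptor for hepatocyte growth factor, and FGFR4, a fibroblast growth factor receptor, also had a T3-only TRβ region over a listed start. The MET region (chr7:116671933-116672439) had values of 4.23 and 4.76, and the FGFR4 region (chr5:177086486-177087507) had 4.62 and 4.80. Both lay near the lower end of the 39 TRβ T3 regions around the 35 genes, whose sums ran over 8.08 to 24.6, and neither was listed with an irreproducible discovery rate (IDR, a measure of how poorly the 2 libraries agree on a region) of at most 0.01.

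ERBB3, a receptor of the EGF receptor family with weak kinase activity of its own, had 4 TRβ T3 regions and 1 TRβ vehicle region, all outside the gene. The strongest TRβ region of the 35 windows, chr12:56127790-56129376 with values of 11.6 and 13.1 (sum 24.6, rank 122), counted for ERBB3 but lay in ESYT1, 24284 bp outside ERBB3. A pair of T3 regions in or beside ZC3H10, with sums of 12.4 and 9.55, overlapped 1 vehicle region with values of 8.12 and 7.28 (sum 15.4). These were shared between conditions, and the remaining ERBB3 region, chr12:56103877-56104486, lay 371 bp outside the gene and 72 bp from PA2G4.

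ERBB2, the receptor of the same family known as HER2, had 2 T3-only TRβ regions, of which neither lay in the gene. One, 1150 bp before the span and in PGAP3, overlapped no region of any remodeler list, and the other lay in GRB7. EGFR, the EGF receptor, had 1 within the gene (chr7:55185945-55186537; values 4.47 and 4.02). FGFR3 had 1 region 0.356 kb past its start with a sum of 10.4 and 1 region 18406 bp outside the gene with a sum of 8.96 that overlapped no remodeler region. PDGFRB, a receptor for platelet-derived growth factor, had 1 T3-only region within the gene (chr5:150137698-150138226; values 6.96 and 4.43). ERBB4, FGFR1, FGFR2 and PDGFRA had no TRβ region in either list.

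RET, the receptor for GDNF-family ligands, had 1 TRβ region, listed with T3 only, inside the gene (chr10:43095770-43096596). Its values were 6.95 and 4.01 (sum 11.0, rank 2710), and its position relative to the nearer listed start of RET was -8.58 kb. No BRG1, ARID1A or PBRM1 region of either condition overlapped it. At the 5′ end of RET, T3-only regions of ARID1A (values 7.27 and 7.15) and PBRM1 (4.48 and 7.46) covered the first listed start. BRG1 was not listed there in either condition. The RET window held 2, 3 and 3 regions of BRG1, ARID1A and PBRM1 with T3, against 5, 6 and 0 with vehicle.

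Among the 7 genes of the RAS-RAF-MEK-ERK cascade, 4 had a TRβ T3 region, with 8 regions in all, against 39.3% of other protein-coding genes. With vehicle 1 had a TRβ region, against 11.1%. NRAS, a RAS GTPase, had no TRβ region in either list and no ARID1A or PBRM1 region. It had 1 BRG1 region at its start in each condition, with values of 3.66 and 4.14 (sum 7.80) with T3 and 7.98 and 4.64 (sum 12.6) with vehicle, which are not on a common scale. NRAS was the gene with the fewest regions of the 35 windows.

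BRAF, the RAF kinase mutated in papillary thyroid carcinoma, had no TRβ region in either list within 25 kb. Its listed start lay in a region of all 6 remodeler lists, each of them shared between the conditions. At this start the PBRM1 values were 9.19 and 7.90 with T3, and 8.01 and 9.38 with vehicle. The window held 5, 3 and 3 regions of BRG1, ARID1A and PBRM1 with T3, against 5, 2 and 2 with vehicle. BRAF was thus occupied by remodelers in both conditions and not listed for TRβ, and with windows extended by 100 kb a TRβ T3 region was counted for it. ARAF, another RAF kinase, had no TRβ region, 3 BRG1 regions with T3 and 2 with vehicle, and 1 further remodeler region, of ARID1A with vehicle.

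HRAS, a RAS GTPase in a gene-dense stretch, had 4 TRβ T3 regions and 1 TRβ vehicle region, none of them overlapping the gene. Its 4 T3 regions gave 7.50 regions per 100 kb of window, the highest density among the 35, ahead of ERBB3 with 5.45 and PIK3R2 with 4.45. The strongest (chr11:506698-507650; values 8.20 and 9.02, sum 17.2) lay in LRRC56 and RNH1. The other 3 lay in LRRC56 and LMNTD2, with sums between 8.08 and 11.6. The vehicle-only region (chr11:528584-529791; values 6.12 and 6.40) lay 2450 bp past the end of HRAS and overlapped no remodeler region.

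The kinases further down the cascade had TRβ at their starts with T3. MAPK3, which encodes ERK1, had 1 TRβ region (chr16:30123004-30123452) with values of 7.03 and 4.94. MAP2K1 and MAP2K2, which encode the MEK kinases, had a region at the start with values of 4.69 and 5.11 at MAP2K1 (chr15:66386649-66387610) and of 3.91 and 5.96 at MAP2K2 (chr19:4123907-4124565). The MAP2K1 region also overlapped TIPIN. All 3 were T3-only and overlapped T3 and vehicle regions of BRG1 and ARID1A and the T3 list of PBRM1, and none overlapped a PBRM1 vehicle region. MAP2K2 had a further region 24196 bp outside the gene, in ZBTB7A, with a sum of 11.5. The IDR was 0.0028 for this region and 0.012 for the MAP2K2 region at the start.

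Of the 9 PI3K-AKT-MTOR genes, 8 had a TRβ T3 region, 12 regions in all, against 39.3% of other protein-coding genes. With vehicle 3 had a TRβ region (AKT1, MTOR and TSC2), against 11.1%. Only the vehicle region inside TSC2 overlapped the gene it was counted for. With regions counted only for their nearest gene, AKT1, MTOR and TSC2 kept no TRβ T3 region. A TRβ vehicle region was then left for 1 of the 35 genes. PIK3R1, which encodes the p85α regulatory subunit of PI3K, had 1 T3-only region at its start (chr5:68215184-68215957) with values of 8.01 and 4.10 (sum 12.1). PIK3CA, which encodes the catalytic subunit p110α, had 1 that ended 121 bp before the gene span, with values of 5.47 and 5.96 (sum 11.4). PIK3R2, another regulatory subunit, had 3: 1 within the gene (sum 10.6) and 2 in MPV17L2 (sums 13.7 and 10.9). PIK3CB, a second catalytic subunit, had none in either list.

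AKT1 and AKT2 encode the kinases activated downstream of PI3K. AKT1 had 2 T3-only regions, both outside the gene: chr14:104752544-104753395 in SIVA1 with values of 9.85 and 5.84 (sum 15.7), and chr14:104797660-104798980 before the gene with values of 7.05 and 7.38 (sum 14.4), 1911 bp from AKT1 and 1573 bp from ZBTB42. A vehicle-only region (chr14:104751756-104752418; values 5.92 and 5.96) lay close to the first of these without overlapping it. A single PBRM1 T3-only region of 33.2 (chr14:104751478-104754586; values 15.9 and 17.3) covered both. AKT2 had 1 T3-only region that ended 53 bp from the gene, with values of 5.15 and 4.94.

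TSC1 and TSC2 encode the complex that restrains MTOR. TSC1 had 1 T3-only region at its start (chr9:132944375-132945316) whose libraries were the farthest apart of the 39, at 2.97 and 9.49, and this was the only one with values more than 2 times apart. TSC2 had no T3-only region. Its window held 1 T3 region near NPW, with values of 6.12 and 8.43 (sum 14.5), which overlapped a vehicle region of 10.2 and 9.25 (sum 19.5), and a vehicle-only region inside TSC2 (chr16:2059981-2060597; values 4.89 and 4.87). MTOR, the kinase of the growth-control complexes, had 1 vehicle-only region in its window, which lay in EXOSC10 and not in MTOR itself (sum 9.50).

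Of the 5 feedback inhibitors, DUSP5 alone had TRβ regions, while 39.3% of other protein-coding genes had one with T3. DUSP5, a nuclear phosphatase of ERK, had 2 T3-only regions at the start of its span, chr10:110497404-110497958 with values of 5.51 and 5.17 (sum 10.7), and chr10:110498215-110499226 with 7.41 and 3.82 (sum 11.2). Both lay under a BRG1 T3 region of 56.2 (values 27.5 and 28.8), which ranked 156 of 55938 and was the BRG1 T3 region of highest signal value in the 35 windows. DUSP4, DUSP6, SPRY2 and SPRY4 had no TRβ region in either list, and each of them had regions of all 3 remodelers with T3.

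**Figure D3:**
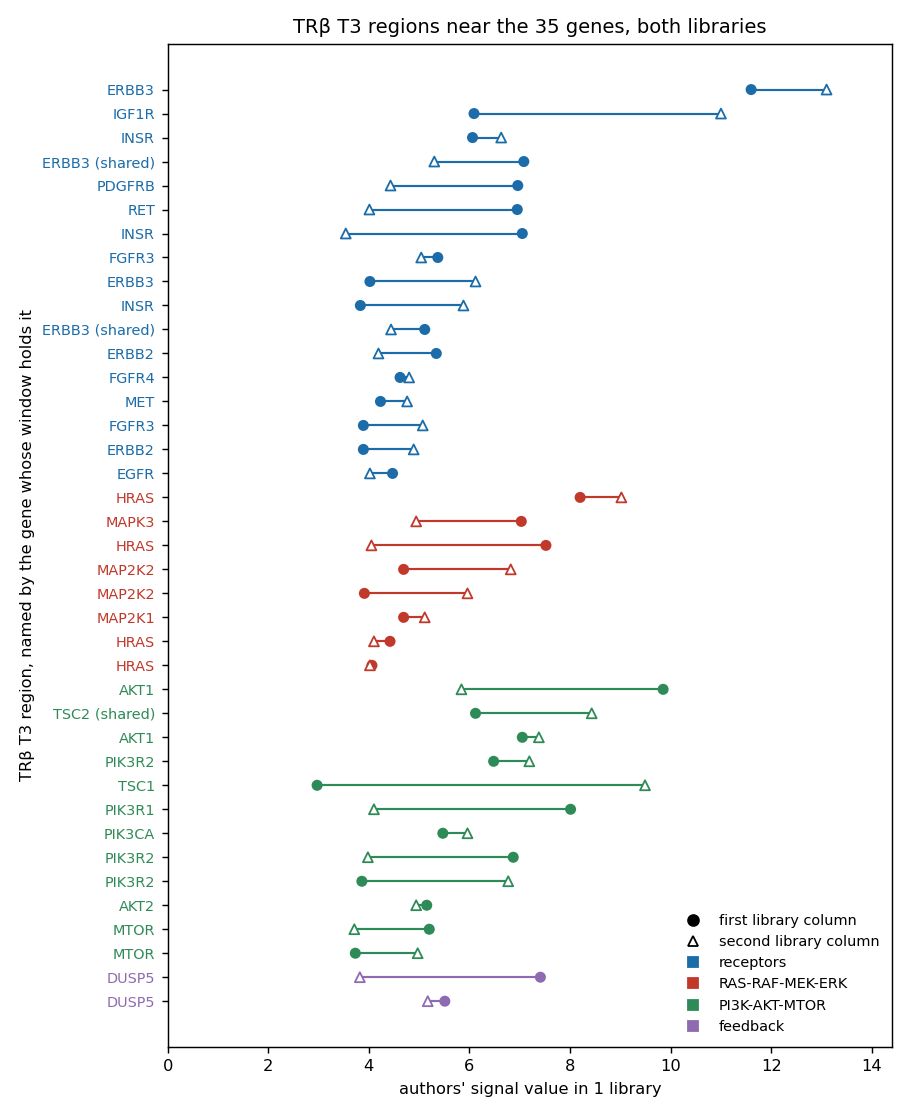
Authors' signal value of each of the 39 TRβ T3 regions near the 35 genes in the first library column (filled circles) and the second (open triangles), coloured by the role of the gene. In 19 regions the first column was higher and in 20 the second, and the TSC1 region has the widest gap, at 2.97 and 9.49.

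The TRβ T3 regions near the pathway genes had much the same strength and width as those elsewhere. Their median signal value was 10.7, against 10.3 for the 6303 TRβ T3 regions near other protein-coding genes, and their median width was 761 bp, against 743 bp. The higher of the 2 library values was a median of 1.33 times the lower, against 1.34 times near other genes. At an IDR of at most 0.01, 24 of the 39 remained (61.5%), against 49.7% near other genes, and 17 of the 23 pathway genes kept a region. The 6 that did not were EGFR, ERBB2, MET, FGFR4, MTOR and TSC1.

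The 8 genes with a listed start inside a TRβ T3 region were IGF1R, MET, FGFR4, MAP2K1, MAP2K2, MAPK3, PIK3R1 and TSC1. They made up 25.8% of the 31 pathway genes with a listed start, against 14.4% of other protein-coding genes. The start region had an IDR above 0.01 at MET, FGFR4, MAP2K2 and TSC1. With vehicle, 0 of the 31 had a start inside a TRβ region, against 2.55% of other protein-coding genes. Of the 39 TRβ T3 regions, 17 overlapped the span of the pathway gene and 22 lay outside it, and 15 of those 22 overlapped another protein-coding gene.

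The remodelers were also listed at starts. BRG1 covered a start of 25 of the 31 genes with T3 and of 28 with vehicle, against 55.7% and 61.4% of other protein-coding genes. ARID1A covered 20 with T3 and 19 with vehicle, against 49.0% and 43.4%. PBRM1 covered 27 with T3 and 11 with vehicle, against 56.3% and 20.1%.

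Most TRβ T3 regions near the pathway genes lay where remodelers were listed. A BRG1 T3 region overlapped 31 of the 39 (79.5%, interval 63.5 to 90.7%), against 72.9% of TRβ T3 regions near other protein-coding genes, and a BRG1 vehicle region 34, against 75.1%. An ARID1A T3 region overlapped 35 (89.7%, interval 75.8 to 97.1%), against 70.4%, and an ARID1A vehicle region 32, against 68.7%. A PBRM1 T3 region overlapped 33 (84.6%, interval 69.5 to 94.1%), against 67.0%, and a PBRM1 vehicle region 11, against 24.9%. The share with PBRM1 thus differed most between conditions. PBRM1 was met in its T3 list alone at 22 of the 39 (56.4%), against 43.5% near other genes. For ARID1A this number was 4 (10.3%), against 8.47%, and for BRG1 it was 0, against 1.67%. The PBRM1 T3 list is the longer one. When the lists were held to equal numbers of regions with vehicle for each antibody, 7 TRβ T3 regions were left. Of these 3 overlapped a PBRM1 T3 region (42.9%), against 59.2% near other genes, where the full lists gave 84.6% against 67.0%. The order of both sets thus turned round, on 7 regions only. For BRG1 the shares were then 85.7% against 95.4%, and for ARID1A 100% against 95.9%. Among regions at an IDR of at most 0.01 the ARID1A and PBRM1 shares were no longer clearly higher near the pathway genes. They were 79.2% against 78.3% for ARID1A and 75.0% against 72.4% for PBRM1. The BRG1 interval given above already held the 72.9% near other genes, and at this limit the order was opposite, at 75.0% against 83.1%.

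All 3 T3 lists were met at 28 of the 39 regions (71.8%), against 58.2% near other protein-coding genes. None of the 3 was met at 3 regions (7.69%), against 20.1%, and these were the region before ERBB2, the region in RET and the distant region of FGFR3. At 9 regions all 6 remodeler lists were met, among them those of IGF1R, MET, PDGFRB, PIK3R1, TSC1 and DUSP5. Of the 12 regions within 1 kb of a listed start of the pathway gene, 11 overlapped all 3 T3 lists, while 11 of the 21 farther away did. Neither this split nor the count in all 6 lists was made for other genes. A listed start lay in a T3 region of BRG1 for 55.7% of other protein-coding genes, of ARID1A for 49.0% and of PBRM1 for 56.3%.

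**Figure D4:**
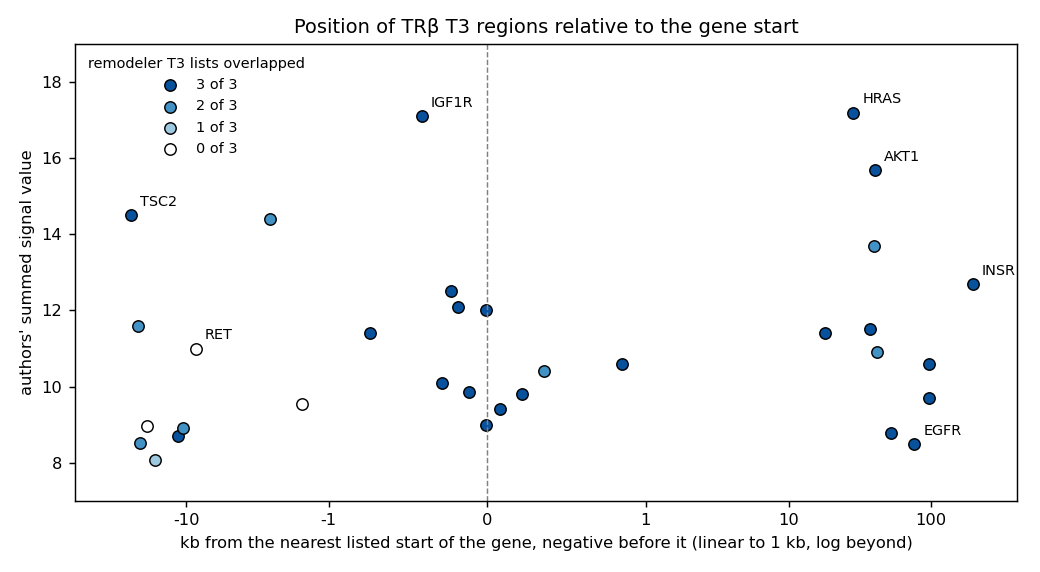
Summed signal value of the 33 TRβ T3 regions of genes with a listed start, by distance in kb to the nearest start (linear to 1 kb and logarithmic beyond, negative before the start). Colour gives the number of remodeler T3 lists overlapped, and 12 regions lie within 1 kb of a start.

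The classes of regions near the pathway genes were close to those near other genes. Of the 39 TRβ T3 regions, 36 were T3-only (92.3%, interval 79.1 to 98.4%), against 92.8% near other protein-coding genes, and 4 of the 6 TRβ vehicle regions were vehicle-only, against 65.1%. For BRG1, 52 of 254 T3 regions were T3-only (20.5%), against 22.6%, and 89 of 294 vehicle regions were vehicle-only (30.3%), against 28.7%. For ARID1A, 81 of 191 T3 regions were T3-only (42.4%), against 45.5%, and 105 of 217 vehicle regions were vehicle-only (48.4%), against 49.5%. For PBRM1, 157 of 204 T3 regions were T3-only (77.0%), against 78.2%, and 16 of 55 vehicle regions were vehicle-only (29.1%), against 23.6%. In all 8 shares the value near other genes lay within the interval of the pathway genes. The order of the antibodies was the same in both sets, with TRβ and PBRM1 mostly T3-only and BRG1 mostly shared. With a reciprocal overlap of 50% in place of 1 bp, the BRG1 T3-only share near the pathway genes became 48.8%, against 48.9% near other genes, and that of ARID1A 63.4%, against 65.6%.

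**Figure D5:**
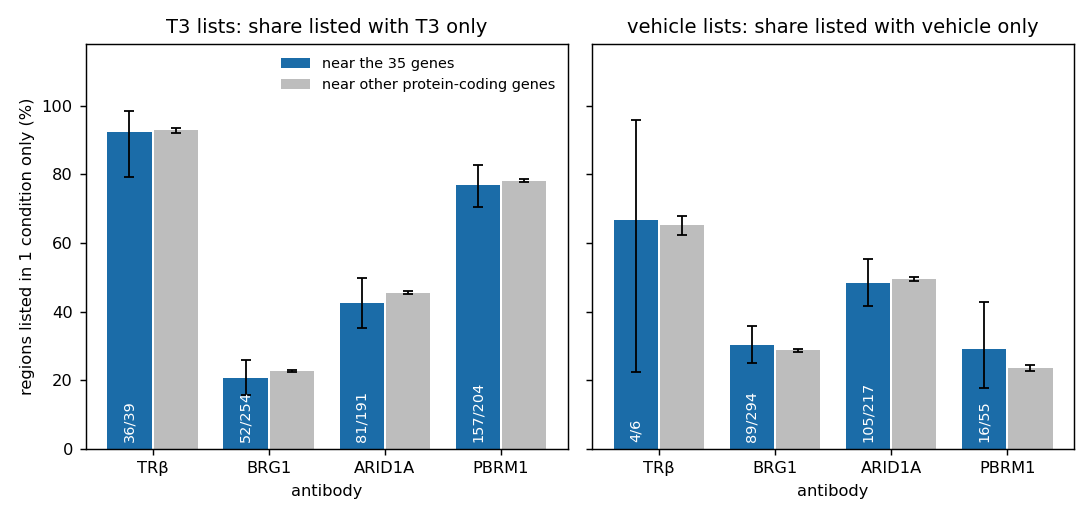
Share of regions listed in 1 condition only, in percent, for T3 lists (left) and vehicle lists (right), near the 35 genes (blue, with counts in the bars) and near other protein-coding genes (grey). Error bars are exact 95% binomial intervals, and each grey bar lies within the interval of the blue bar beside it.

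The remodeler regions were spread unevenly over the 35 genes. IGF1R had 39 BRG1 regions with T3 and 49 with vehicle, and 25 PBRM1 regions with T3 against 8 with vehicle. EGFR had 35 PBRM1 regions with T3, of which 26 were T3-only, against 8 with vehicle, while its BRG1 regions numbered 28 with T3 and 21 with vehicle. Near other protein-coding genes there were 4.08 PBRM1 T3 regions per vehicle region, and 78.2% of the T3 regions were T3-only. MET had 18 BRG1 regions with T3 and 20 with vehicle. These are genes with long spans, and per 100 kb of window the leading gene with T3 was ERBB3 for BRG1 (23.2), HRAS for ARID1A (20.6) and HRAS for PBRM1 (16.9). With vehicle it was ERBB3 for BRG1 (20.4), TSC2 for ARID1A (18.6) and ERBB2 for PBRM1 (7.73).

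The ERBB2 window went in the opposite direction for PBRM1, with 4 regions with T3 against 7 with vehicle. ERBB2 was the only one of the 35 genes with fewer PBRM1 regions under T3, and this count was not made for other protein-coding genes. Its window held 6 further protein-coding genes, so that these regions can lie in a neighbour. TSC2 had 11 PBRM1 regions with T3, all T3-only, against 0 with vehicle, where the PBRM1 list is much the shorter. Within PDGFRB a broad region was listed for every remodeler in both conditions and overlapped its TRβ T3 region. Its PBRM1 values were 8.20 and 30.9 with T3, and 18.8 and 46.8 with vehicle, which are not on a common scale. With vehicle it ranked 5 of 9115, but its IDR there was 0.035. ERBB4, whose span is the longest of the 35, had a BRG1 region at its start with vehicle only (chr2:212537044-212538831; values 20.2 and 9.49) and no ARID1A region in either list.

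Further genes of the same pathways, 45 in number, gave similar counts for TRβ. With T3, 26 of the 45 had a TRβ region, against 39.3% of protein-coding genes outside the 35, and with vehicle 5 had one, against 11.1%. Of their 43 TRβ T3 regions 42 were T3-only, against 92.8% near protein-coding genes outside the 35. By group, a TRβ T3 region was present near 6 of 12 adaptors and RAS regulators, 5 of 10 further receptors, 9 of 11 further PI3K-MTOR genes and 6 of 12 further feedback genes and ERK targets. The strongest regions were those in the windows of SHC1, an adaptor between receptors and RAS (values 15.2 and 12.3, sum 27.5), and PDPK1, the kinase that phosphorylates AKT (9.84 and 16.7, sum 26.6). PDPK1 had 6 TRβ T3 regions in its window. Among the others were PIK3CD (sum 18.4) and PIK3R3 (values 5.38 and 9.63), both PI3K subunits, IRS1 (sum 14.1), the insulin receptor substrate, AXL (sum 13.2), a receptor kinase, and DUSP2 (sum 13.2), a phosphatase of MAP kinases.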

How the data were processed

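The authors' deposited files are 8 lists of CUT&RUN regions, 1 per antibody and condition, in the layout of the irreproducible discovery rate (IDR) method. Per the submitters' processing notes, CASAVA 1.7, Trim Galore, Bowtie2 and MACS2 were used with the build hg38. Parameters, and any use of the IgG library as control, are not given in those notes. The deposited signal value of a region is the sum of the values of 2 libraries, on the authors' own scale, and was used only within a list. The deposited −log10 of the IDR gave rates of up to 0.05. The deposited interval is the union of both libraries' intervals; which column is which numbered replicate is not stated, and 16 summit columns were not used.

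Regions on sequences other than chromosomes 1 to 22, X and Y were left out (817). Gene spans are those of RefSeq (GRCh38.p14, a table without exons), so exonic and intronic positions are not given; starts, strands and promoter bases came from the RefSeq promoter table. A region was shared where at least 1 bp overlapped the other condition's list, and T3-only or vehicle-only where none did. No test was run. Intervals are exact 95% binomial (Clopper-Pearson). The 35 genes, the 45 further genes and all settings were chosen with earlier results of these data known. Named in detail were BRAF, RET, NRAS and HRAS, the 3 genes of each role with the highest TRβ T3 signal value, genes with shared, vehicle-only or no TRβ regions, those with most regions per 100 kb, and up to 4 further genes per group; EGFR, IGF1R and MET counts and single remodeler regions were added after their values were seen. No cell type markers were used. The positions of some regions are not reported here. Alternatives were an IDR of 0.01, lists of equal length, reciprocal overlap of 50%, windows of 5 kb, 100 kb and the span alone, the interval of each library, leaving out regions in all 8 lists, and, chosen after seeing the data, counting a region only for its nearest gene. Overlap counting was tested on simulated data, with 0 wrong calls among 1000 regions and 0 among 500 genes at window edges. Python 3.11.15, numpy 2.4.6, pandas 2.3.3, scipy 1.17.1 and matplotlib 3.10.9 were used.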

Additional observations from a re-analysis of the deposited data

How the results depend on the processing

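Of 190 summary values over 10 alternative settings, 157 stayed within 1.5 times the reported count or within the interval of the reported share, and 33 moved; none moved with the interval of either library alone or without regions present in all 8 lists. At an IDR of at most 0.01 TRβ with vehicle was listed near 1 gene, against 2.21% of other protein-coding genes. PBRM1 with vehicle was listed near 11, against 14.7%. The vehicle-only share of TRβ became 0% of 1 region, against 36.9% near other genes. T3-only shares became 15.5% for BRG1, against 18.4%, and 87.8% for PBRM1, against 89.5%. The vehicle-only share of PBRM1 became 7.14% of 14 regions, against 10.7%. With lists of equal length TRβ with T3 was listed near 6 genes, the PBRM1 shares became 57.7% T3-only and 61.8% vehicle-only, and the TRβ T3 regions overlapping ARID1A and PBRM1 became 100% and 42.9% of 7. With reciprocal overlap of 50% the T3-only and vehicle-only shares became 48.8% and 55.4% (BRG1), 63.4% and 67.7% (ARID1A), and 84.8% and 43.6% (PBRM1). Near other genes they were 48.9% and 55.4%, 65.6% and 70.1%, and 86.3% and 44.0%. TRβ T3 regions overlapped BRG1 at 35.9%, ARID1A at 41.0% and PBRM1 at 43.6%, against 25.4%, 36.5% and 29.4%. With vehicle, TRβ was listed near 2 genes in windows of 5 kb, 8 in windows of 100 kb, 1 over the span alone and 1 by nearest gene, against 6.81%, 21.9%, 5.06% and 5.95% of other protein-coding genes. With windows of 5 kb, the span alone or the nearest gene, the TRβ T3 regions left (22, 17 and 20) were 100% T3-only. Near other genes these shares were 92.4%, 92.2% and 92.8%. The TRβ vehicle regions left (2, 1 and 1) were 100% vehicle-only, against 63.1%, 61.8% and 65.1%. Over the span alone TRβ with T3 was listed near 15 genes, against 22.5% of other protein-coding genes. Of BRG1 vehicle regions 24.3% were vehicle-only, against 27.3% near other genes. Of the 17 TRβ T3 regions left 94.1% overlapped BRG1, against 75.0%. By nearest gene, TRβ T3 regions were left for 17 of the 23 genes, against 25.8% of other protein-coding genes, without ERBB2, ERBB3, HRAS, AKT1, MTOR and TSC2. The IDR limit, equal length, narrower windows and nearest gene count fewer regions, the 100 kb window counts more, and reciprocal overlap is stricter; other causes were not tested. Of 350 counts of TRβ T3 regions per gene, 278 stayed the same by the same limit. Read depth is unknown, so a gene without a listed region cannot be told apart from one below detection. Leaving out a replicate was not possible, since each list needs both libraries. The interval of each library changes only the borders of regions found in both, so it is no replicate check. No paired analysis was possible because each group has 1 list and no test across samples was run.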
